A study of Mus musculus with 16 samples.

Results

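4-Hydroxy-tamoxifen (OHT) was the switch used throughout the study to activate Notch1, and the EB5 control cells, which carry no inducible Notch1, show what the drug did by itself. They were chosen by their labels, namely the arrays with the control construct, and make up 4 of the 16 arrays. EB5 is a murine embryonic stem cell (ESC) line, and the control cells carried an empty pCAG vector. NERT, which the other cells of the series carry, is the intracellular domain of Notch1 fused to a hormone-binding domain that OHT releases into the nucleus. The 4 arrays were control ESCm +OHT and control ESCm −OHT (ESC kept for 4 h in a medium with Knockout Serum Replacement and 1% FCS that favors mesoderm), and control mesoderm +OHT and control mesoderm −OHT (mesodermal progenitors grown on Collagen IV to day 4). OHT was given at 1 µM for 4 h, none of these arrays had cycloheximide (CHX), and what was added to the cells without OHT is not given in the sources used here. Each condition is 1 array of 1 control cell line, so a difference within 1 population has no replicate check. The other 12 arrays are of NERT cells, 1 each with and without OHT in ESCe (an ectoderm-favoring medium) and in ESCm, and 2 each with and without OHT in mesodermal cells without CHX and again with CHX at 50 µg/ml.

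OHT is the active metabolite of tamoxifen and a ligand of the estrogen receptors, which bind DNA and turn transcription up or down depending on the ligand and the tissue. The drug is also known to bind enzymes of late cholesterol synthesis and to accumulate in lysosomes. Fusions to a mutated hormone-binding domain are used because cells are supposed to respond little to OHT otherwise, and control cells without the fusion serve to measure that response.

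The labels fitted the markers in part. Brachyury (T), which the study used as its mesoderm marker, was on the marker list drawn up here, but its values were not among those compared. Fgf8, a signal of the primitive streak, stood at 241 and 215 in mesodermal cells with and without OHT and at 6.64 and 10.6 in ESCm, and the streak factors Mixl1 (237 and 250.4 in mesodermal cells, 58.1 and 55.8 in ESCm) and Eomes (525 and 505 in mesodermal cells, 102 and 111 in ESCm) ran the same way. Kdr, which encodes Flk1, did not separate the populations (128 and 106 in mesodermal cells, 130 and 172 in ESCm). Pdgfra, a receptor of mesoderm, was lower in mesodermal cells (40.7 and 29.5) than in ESCm (138 and 156), and Mesp1 hardly differed (227 and 242 in mesodermal cells, 236 and 255 in ESCm). Of 12 pluripotency genes all were at 50 or more on the 4 arrays, and 10 were lower and 2 higher on both mesoderm arrays than on both ESCm arrays. Zfp42 (Rex1) read 2859 and 2848 in mesodermal cells and 5554 and 5502 in ESCm, and Pou5f1 3303 and 3449 in mesodermal cells and 2624 and 2490.5 in ESCm. Markers of endoderm, blood and trophoblast were summed in the same way, and within a population their sums with and without OHT lay close (664 and 647 for 5 endoderm genes in ESCm, 214 and 225 in mesodermal cells). Array medians ran between 42 and 43.5 on the 4 control arrays.

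Few genes moved by much. With at least a 2-fold change and a difference over 50 intensity units, the size criteria of the study without its detection calls, 22 of 45037 probe sets differed in ESCm (0.0488%, 12 higher and 10 lower with OHT) and 11 in mesodermal cells (0.0244%, 6 higher and 5 lower). None of these probe sets was shared, since no tested probe set moved 2-fold in the same direction in both populations. The same criteria gave 163 and 181 probe sets for OHT in NERT cells in ESCe and ESCm, and 160 to 640 between replicate 2 and replicate 1 of the same condition in NERT mesodermal cells. Over the 23302 probe sets that reached 50 on at least 1 control array, the root mean square difference on the log2 scale was 0.171 for the drug in control ESCm and 0.159 in the mesodermal controls, against 0.242 to 0.390 between NERT replicates. All log2 differences are of the intensity plus 25, which understates changes of weak probe sets. Both drug pairs of control cells thus lay closer together than the replicate arrays of NERT cells, as the plot of differences by size shows. Those replicates carry NERT, and the largest values, 640 and 0.390, are of cells with CHX. Without CHX the replicate pairs gave 0.242 and 0.33. Control cells had no replicates, so the comparison does not place the OHT response below their own replicate spread.

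**Figure D1:**
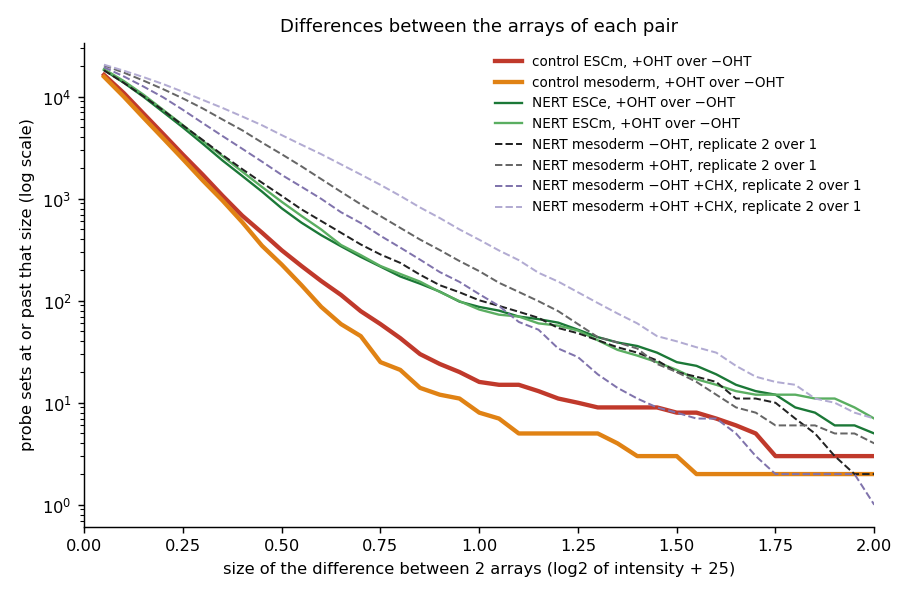
Number of the 23302 tested probe sets (y axis, log scale) whose difference between the 2 arrays of a pair reaches a given size (x axis, log2 of intensity plus 25). The control pairs (thick lines) fall below the NERT pairs with and without OHT (thin lines) and below the pairs of NERT replicates (dashed) at every size from 0.05 to 1.4, with root mean squares of 0.171 and 0.159.

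The probe sets past 2-fold were mostly weak. Among probe sets with a gene symbol, the largest ratios higher with OHT in ESCm belonged to Cracd (103 with OHT, 3.43 without), Aplp2 (87.5, 12.7), Cxxc4 (78.0, 17.7), an inhibitor of Wnt signaling, and Rasl10a (73.7, 17.6). Cxxc4 stood at 35.8 and 38.4 in mesodermal cells, and its range over the other 14 arrays, 12.4 to 104, covers both ESCm values. Only NERT arrays with CHX passed the ESCm value with OHT, and those of the 14 without CHX reached at most 62.7. Lower with OHT were Cxadr (6.58, 80.4), H2-Q5 (6.20, 71.7) and Lrrc73 (8.95, 83.2). In mesodermal cells the laminin chain Lama4 (60.5, 4.73) and the talin gene Tln1 (213, 66.9) were higher, and the DNA repair enzyme Ogg1 (46.5, 102) was lower. For 6 of the 33 probe sets 1 array of the pair lay at least 1 beyond all 15 others on the log2 scale, and in each case that was the array without OHT. Adam19, a membrane metalloprotease, read 337 on the ESCm array without OHT and 14.7 to 58.3 on the other 15. Tln1 read 66.9 on the mesoderm array without OHT and 213 to 399 elsewhere, and the long noncoding RNA Gm17762 148 on that array and 8.10 to 30.4 elsewhere.

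Changes that both populations shared were asked for next, with limma on the 4 arrays and population as block. With OHT 86 probe sets were called higher (0.369% of 23302) and 18 lower (0.0772%), 104 in all (0.446%), at an adjusted p under 0.05. Changes were small, with a median of 0.40 among the higher and −0.51 among the lower on the log2 scale, and 3 of the 104 reached 2-fold. The fit has 1 residual degree of freedom and leans on the spread over all probe sets. A large change in 1 pair can therefore be called, as it was for Adam19, Gm17762 and Tln1. When the spread was taken from all 16 arrays with the 12 conditions as groups, limma called none of the 23302 probe sets (186 at an unadjusted p under 0.05, lowest adjusted p among the 104 calls 0.173), and none with the responses pooled over the cell states (274 at an unadjusted p under 0.05). Among the 104, 102 moved the same way in both populations, against 51.4% of all tested probe sets. By 0.32 or more on the log2 scale in each, 45 did so, against 165 of all 23302. On 61 of the 104 (58.7%) both arrays with OHT lay above, or both below, both arrays without, against 13.1% of all tested probe sets. None of these counts is separate evidence, as the calls were made on the same arrays. Called probe sets had median intensities of 262.5 for the higher and 129 for the lower.

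**Figure D2:**
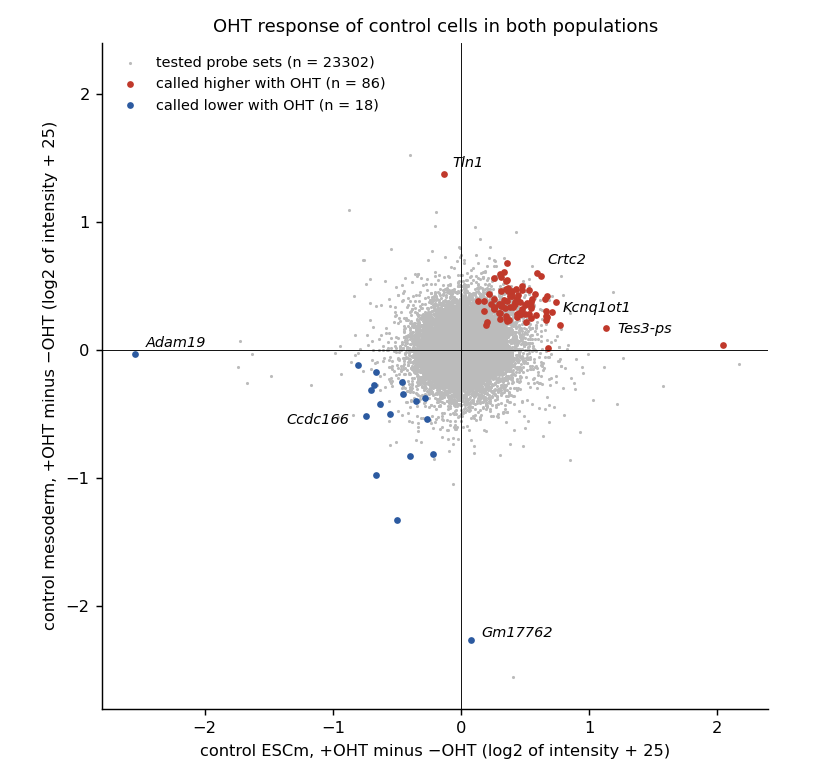
Change with OHT in control ESCm (x axis) and control mesodermal cells (y axis), +OHT minus −OHT in log2 of intensity plus 25, 1 point per probe set. The cloud of 23302 tested probe sets is round (Pearson r 0.07), most of the 86 probe sets called higher sit at its upper right edge, and some calls, among them Adam19, Tln1 and Gm17762, lie near an axis, with a change in 1 population alone.

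Across all probe sets the responses of the populations were nearly uncorrelated. The change in ESCm and that in mesodermal cells had a Pearson correlation of 0.07 and a Spearman correlation of 0.06 over 23302 probe sets, which share 1 normalization and are no independent replicates, and the sign was the same for 51.4%. At 0.32 or more on the log2 scale, 125 probe sets were higher in both populations (0.536% of those tested, 13.8% of the 907 higher in ESCm and 15.8% of the 791 higher in mesodermal cells), and 40 were lower in both (0.172%, or 7.89% of 507 and 8.70% of 460). A further 87 moved in opposite directions. At 1.5-fold 2 were higher in both, 1 was lower in both and 6 were opposite. The 125 that were higher in both were weak probe sets with a median intensity of 76.8, against 185.9 for all tested, and 45.6% of them had no gene symbol, against 9.68% of all tested. In NERT cells, whose arrays played no part in that choice, 47 of the 125 were higher with OHT and their median was −0.05, against 51.9% higher and a median of 0.0046 over all tested probe sets.

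Probe sets for long noncoding RNAs were called higher at a larger share than all tested probe sets. So were those without a gene symbol, whose transcript type is not given. Of 356 tested probe sets for long noncoding RNAs (lncRNA) 15 were called higher (4.21%) and 2 lower, of 2255 without a gene symbol 27 were called higher (1.2%), and of 19985 for protein coding genes 38 (0.19%), against 0.369% of all. The lncRNA calls came from 9 of 287 lncRNA genes, and without those of Meg3 they were 10 of 346 (2.89%). Medians of the whole lncRNA class were small, 0.04 in ESCm and 0.02 in mesodermal cells, beside 0.0031 and 0.02 over all probe sets.

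Meg3, the maternally expressed lncRNA of the imprinted Dlk1-Dio3 region on chromosome 12, had 5 of its 10 tested probe sets called higher. Its probe set 1452183_a_at read 1245 in ESCm with OHT and 911 without, and 2232 in mesodermal cells with OHT and 1688 without, a mean change of 0.42 ± 0.06 (SE, adjusted p = 0.000123). Within each population the array with OHT was the higher one, by similar amounts (0.44 and 0.40), while the levels of the populations differed more than those with and without OHT. The other 4 calls had changes of 0.30 to 0.40, and 3 of the 5 uncalled Meg3 probe sets changed in the same direction. Mirg, a microRNA host transcript of the same region, read 426 and 308 in ESCm with and without OHT and 743 and 606 in mesodermal cells (0.36 ± 0.07, adjusted p = 0.0118). The other Mirg probe set gave 0.12 ± 0.08 and was not called. Rian, a further transcript of the region that carries small nucleolar RNAs, gave opposite calls from its probe sets, 1428055_at higher (244 and 178 in ESCm, 203 and 145 in mesodermal cells) and 1452899_at lower (87.5 and 149.6, 142 and 198). Dlk1, the protein coding gene of the region expressed from the paternal copy, read 72.8 and 73.3 in ESCm and 89.1 and 102 in mesodermal cells (adjusted p = 0.98).

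In the NERT arrays Meg3 1452183_a_at was higher with OHT in ESCe (1383 against 1091) and ESCm (1269 against 1044). With 2 arrays each, NERT mesodermal cells read 2491 and 1158 with OHT and 1272 and 974.5 without. These groups overlap when arrays are not paired by replicate number. With CHX the NERT mesodermal cells read 336 and 526 with OHT, below 601 and 558 without. The fit of all 12 NERT arrays, without such pairing, did not call this probe set (0.16 ± 0.20, adjusted p = 0.968).

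Other nuclear or host-gene RNAs were called. Malat1, a lncRNA of nuclear speckles, read 1722 and 1345 in ESCm with and without OHT and 324 and 226 in mesodermal cells with its probe set 1438403_s_at (0.41 ± 0.07, adjusted p = 0.00174), a second probe set was called, and the 4 remaining ones changed in the same direction. Kcnq1ot1, the antisense lncRNA of the imprinted Kcnq1 domain on chromosome 7, read 257.5 and 148 in ESCm and 164 and 128 in mesodermal cells (1442029_at, 0.50 ± 0.10, adjusted p = 0.00448), a larger change in ESCm (0.71) than in mesodermal cells (0.30). Xist, the RNA that coats the inactive X chromosome, read 341 and 234 in ESCm and 126 and 99.4 in mesodermal cells (0.39 ± 0.09, adjusted p = 0.029). Gas5 and Snhg3 host small nucleolar RNAs and changed by 0.30 ± 0.07 and 0.27 ± 0.06 at their called probe sets. For Gas5 that was a weaker probe set, and its highest one gave 0.13 ± 0.05 without a call (adjusted p = 0.466). In NERT cells Kcnq1ot1 changed by 0.14 in ESCe, −0.47 in ESCm, 0.25 in mesodermal cells and −0.06 with CHX, and Xist was lower with OHT in all 4 cell states (−0.17 to −0.51), the opposite of the control cells, without a call (adjusted p = 0.287).

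**Figure D3:**
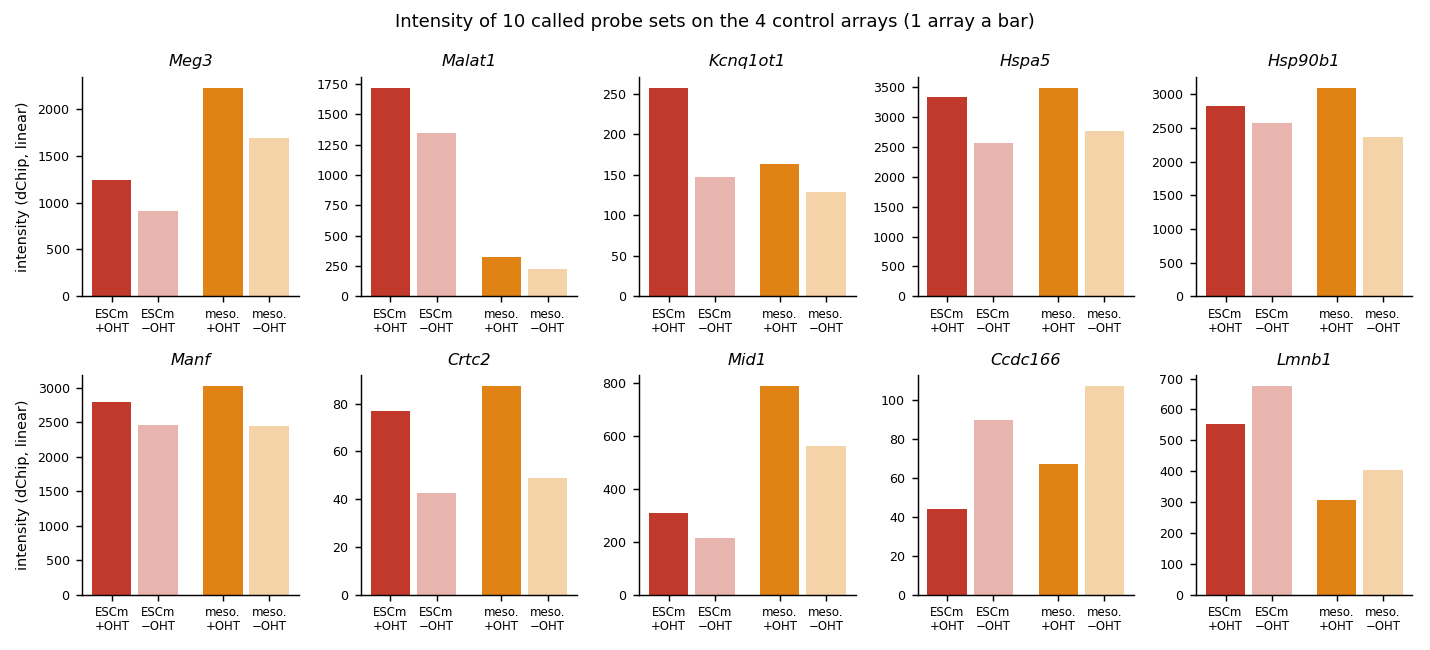
Intensity (y axis, linear dChip units from 0) of 10 called probe sets on the 4 control arrays, in each panel ESCm with and without OHT and then mesodermal cells with and without OHT, 1 array a bar. In the first 8 panels the bar with OHT is the taller one in both populations, by 0.14 to 0.71 on the log2 scale. As the mean of both populations the difference is 0.24 to 0.60. For Ccdc166 and Lmnb1 the bar with OHT is the shorter one.

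The calls included chaperones of the endoplasmic reticulum (ER). Hspa5 (BiP), the Hsp70 chaperone that also keeps the stress sensors of the ER inactive, read 3341 and 2563 in ESCm with and without OHT and 3498 and 2764 in mesodermal cells with 1427464_s_at (0.36 ± 0.05, adjusted p = 8.84e-05, the lowest of the 104). A second probe set, 1416064_a_at, read 6118 and 5401 in ESCm and 6225 and 4769 in mesodermal cells (0.28 ± 0.04, adjusted p = 0.000566). Both arrays with OHT lay above both without in each. A further, weaker one gave 0.03 ± 0.08 and was not called. Hsp90b1 (Grp94), the Hsp90 chaperone of the ER, read 2824 and 2569 in ESCm and 3099 and 2368 in mesodermal cells (0.26 ± 0.05, adjusted p = 0.011), with the larger part of the change in mesodermal cells. Its highest probe set, 1415889_a_at, gave 0.17 ± 0.04 and was not called (adjusted p = 0.073). Manf, a secreted protein induced by ER stress, read 2795 and 2461 in ESCm and 3031 and 2445 in mesodermal cells (0.24 ± 0.05, adjusted p = 0.0118).

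The promoters of these chaperones are shown because genes of this group share a known element, the ER stress element, CCAAT and CCACG with 9 free bases between them. It was searched on both strands in the 250 bases before each gene's start, from RefSeq on GRCm38.p6, with matches in capitals and the gene's strand 5′ to 3′. Hspa5 held 1 match (chr2:34771840-34772089, plus strand) and Hsp90b1 held 2, the second on the opposite strand (chr10:86705445-86705694, minus strand).
Hspa5: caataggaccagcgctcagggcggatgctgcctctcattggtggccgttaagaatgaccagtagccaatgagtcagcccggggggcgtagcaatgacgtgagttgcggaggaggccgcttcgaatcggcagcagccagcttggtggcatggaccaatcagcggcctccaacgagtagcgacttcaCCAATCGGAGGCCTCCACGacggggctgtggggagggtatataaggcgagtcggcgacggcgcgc
Hsp90b1: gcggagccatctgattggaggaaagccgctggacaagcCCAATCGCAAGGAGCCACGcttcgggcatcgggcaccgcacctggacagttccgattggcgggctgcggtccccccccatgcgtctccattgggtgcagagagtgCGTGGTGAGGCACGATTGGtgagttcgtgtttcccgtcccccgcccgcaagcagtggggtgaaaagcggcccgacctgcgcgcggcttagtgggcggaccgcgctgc
The element was in 35 of 27025 gene promoters (0.130%), in these 2 of the 38 genes called higher that have a promoter window, and in none of 12 called lower. Of 23 unfolded protein and amino acid stress genes with a window, 4 held it (17.4%), these 2 and Creld2 and Syvn1, which were not called. The palindromic estrogen response element, GGTCA and TGACC with 3 free bases between them, was in 18 of 27025 promoters (0.0666%) and in none of those 38 or 12. A match is a description of the letters, and its absence says nothing of the receptor.

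The list of unfolded protein and amino acid stress genes, read from the highest probe set of each gene, had 14 of 24 genes higher in both populations and 1 lower in both, against 29.2% and 21% of 11843 genes. At these probe sets only Hspa5 of the 24 was called (0.245% of all genes were), while the Hsp90b1 call came from another probe set. The median change was 0.06 in ESCm and 0.17 in mesodermal cells, beside −0.0002 and 0.02 over all genes. Herpud1, a component of ER-associated degradation, read 141 and 114 in ESCm and 352 and 257 in mesodermal cells (0.34 ± 0.09, adjusted p = 0.063). Trib3, a pseudokinase induced by amino acid stress, gave 0.24 ± 0.08 (adjusted p = 0.294), and Syvn1, the ubiquitin ligase of ER-associated degradation, 0.17 ± 0.08 (adjusted p = 0.647). Ddit3 (CHOP), the proapoptotic factor of the response, read 120 and 125 in ESCm and 446 and 314 in mesodermal cells, a difference in the second population only (−0.05 and 0.47, adjusted p = 0.61). Atf4, its activator, gave −0.17 and 0.22.

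The NERT arrays gave this list similar medians, 0.18 in ESCe, 0.21 in ESCm and 0.18 in mesodermal cells, beside 0.08, 0.07 and −0.05 over all genes, and 0.07 with CHX, beside 0.00 over all genes. Hspa5 1416064_a_at was higher with OHT in ESCe (6936 against 5460) and ESCm (7571 against 6226), and in mesodermal cells both arrays with OHT (5788 and 6584) exceeded both without (5102 and 5461). With CHX its groups overlapped (6459 and 8238 with OHT, 7088 and 7448 without). The fit of the 12 NERT arrays called neither Hspa5 probe set (adjusted p = 0.488 and 0.784). On 1 of these arrays, NERT mesoderm +OHT replicate 2, 1427464_s_at read 18876 and its partner with OHT 2905, which sets the value of 1.43 for that state.

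The other calls had mixed functions. With OHT the largest changes among genes read from their highest probe set were those of the pseudogene Tes3-ps (189 and 72.7 in ESCm, 97.2 and 83.3 in mesodermal cells, 0.65 ± 0.13) and of Crtc2, a coactivator of CREB (76.8 and 42.5 in ESCm, 87.4 and 49.1 in mesodermal cells, 0.60 ± 0.13, adjusted p = 0.0233). Over genes read from their highest probe set, Crtc2 had the largest rise common to both populations (0.59 and 0.60), while its other probe set gave 0.03. Zfp940, a zinc finger gene, changed by 0.56 ± 0.11, Mid1, a microtubule-bound ubiquitin ligase, by 0.47 ± 0.08 (310 and 216 in ESCm, 790.2 and 563 in mesodermal cells, adjusted p = 0.00108), and the dipeptidyl peptidase Dpp9 by 0.45 ± 0.08. Cep295, a centriole protein, Hrc, a calcium-binding protein, the channel gene Trpc2 and the autophagy gene Wipi1 gave 0.44, 0.44, 0.43 and 0.41. Genes of RNA binding and splicing were picked out after their values were seen, the splicing regulator Tra2a (0.48), Safb2 (0.45), Hnrnpu (0.42), Hnrnpdl (0.40), Srrm2 (0.37), Pabpc1 (0.35), Stau1 (0.34) and Luc7l2 (0.33). For 7 of these 8 the call came from a weaker probe set, and their highest probe sets changed by 0.01 to 0.14 without a call, such as that of Hnrnpu (5722 and 5710 in ESCm, 5595 and 5438 in mesodermal cells). Of 34 SR and hnRNP splicing factors, listed after the calls were known, none was called at the highest probe set, 15 were higher and 4 lower in both populations (all genes 29.2% and 21%), and the medians were 0.0019 and 0.04.

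Lower with OHT was a short list. Ccdc166 read 43.7 and 89.8 in ESCm with and without OHT and 67.2 and 107 in mesodermal cells (−0.63 ± 0.12, adjusted p = 0.00768), but its other probe set went the opposite way (0.25 ± 0.14, not called). Lrrc17, a secreted leucine-rich repeat protein, read 67.1 and 110 in ESCm and 49.0 and 79.8 in mesodermal cells (−0.53 ± 0.12, adjusted p = 0.0315). Lmnb1 (lamin B1), of the nuclear lamina, read 552 and 676 in ESCm and 305 and 403 in mesodermal cells (−0.33 ± 0.08, adjusted p = 0.0283). Hr, a nuclear corepressor, changed by −0.51 ± 0.11, mainly in mesodermal cells (−0.81), and Slc16a3, a lactate transporter, by −0.41 ± 0.09, mainly in ESCm (27.3 with OHT and 57.7 without, while mesodermal cells read 1214 and 1366). Retreg3, a receptor of ER turnover, and Lhfpl2 gave −0.40 and −0.35. Ccdc166 was higher with OHT in 3 of the 4 NERT states.

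Calls were compared with the other probe sets of the same genes. The 49 genes called higher included 39 with further tested probe sets, 106 in all, of which 83.0% changed upward on average and 62.3% in both populations, against 56.3% and 30.4% of all tested. Their median was 0.08, well under the median of 0.40 for the calls. The 17 genes with lower calls alone had 19 further probe sets, 52.6% changed downward, against 43.6% of all tested, with a median of −0.01. All these probe sets read the same arrays as the calls, so agreement among them is no separate evidence of an effect of OHT.

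NERT cells gave a second view of the same drug, with active Notch1 besides. Of the 104 calls 53 had the same direction in the fit of the 12 NERT arrays, 45 of the 86 higher and 8 of the 18 lower, against 51.9% higher over all tested probe sets. That fit called 292 of 23302 (244 higher, 1.05%, and 48 lower, 0.206%), and among these were none of the 104 in the same direction and 1 in the opposite one. Across 16 arrays the NERT response minus the control response passed the test for 7 probe sets (0.03%), and for none when either NERT mesoderm +OHT array was left out.

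**Figure D4:**
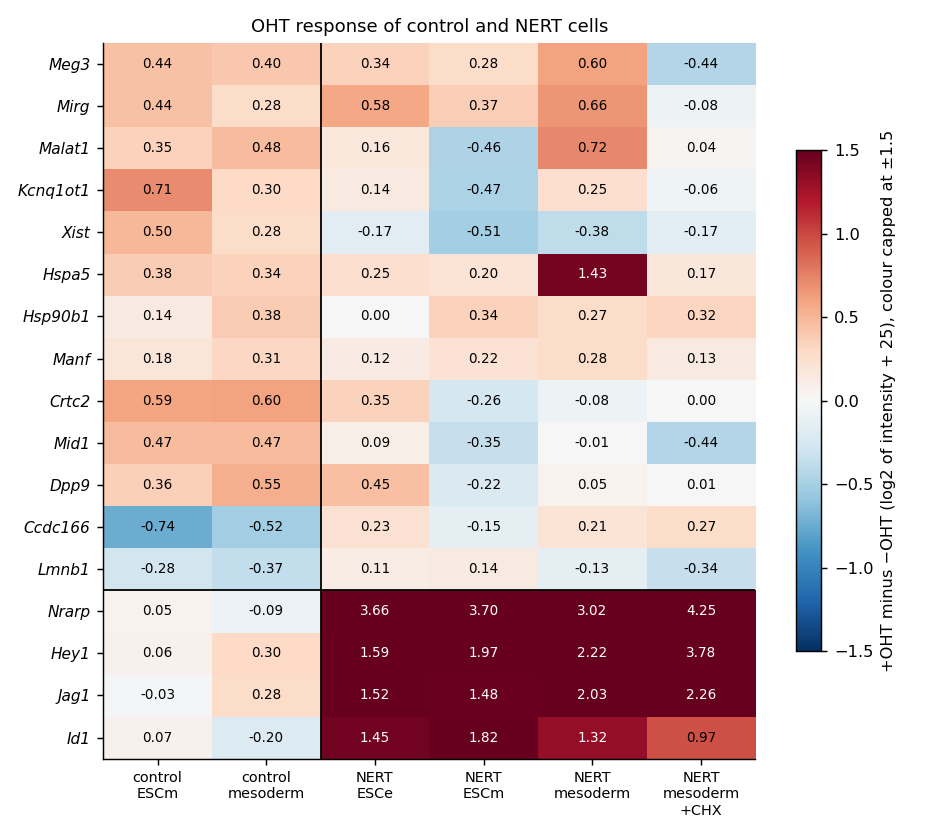
Change with OHT (+OHT minus −OHT, log2 of intensity plus 25, printed in each cell) of called control genes above the horizontal line and of Notch target genes below it, in the 2 control populations (left of the vertical line) and the 4 NERT cell states. Nrarp read 0.05 and −0.09 in control cells and 3.02 to 4.25 in NERT cells, while Xist was higher with OHT in both control populations (0.50 and 0.28) and lower in all 4 NERT states.

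No Notch target gene passed the test in control cells. Nrarp, a feedback inhibitor of Notch, read 57.6 and 54.9 in ESCm with and without OHT and 80.7 and 87.4 in mesodermal cells, and NERT cells read 1691 to 8474 with OHT and 110 to 707 without. The difference between the responses, NERT minus control, was 3.38 ± 0.29 (adjusted p = 0.00538). The repressor genes Hes1 (127 and 124 in ESCm, 204.5 and 218 in mesodermal cells) and Hey1 (21.6 and 19.8 in ESCm, 60.9 and 45.0 in mesodermal cells) were not called in control cells. The ligand gene Jag1 (136 and 139 in ESCm, 166 and 132 in mesodermal cells) and Id1, an inhibitor of bHLH factors (297 and 282 in ESCm, 624 and 723 in mesodermal cells), were also not called, with adjusted p-values of 0.891 to 0.994 for these 4 genes. Hes5, Heyl, Lfng and Sox9 stayed below 50 on all 4 control arrays and were not tested. Of the 23 tested genes of the Notch list none was called in control cells, with medians of 0.02 and −0.07. In NERT cells 11 of them were called higher (166 of all 11843 genes were), with a median of 0.78.

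Pathways that OHT is known to touch showed no called gene at the highest probe set of each gene. Of 25 estrogen receptor and target genes 17 were tested, 4 were higher and 6 lower in both populations, and the medians were 0.01 in ESCm and −0.03 in mesodermal cells. Cxcl12, a chemokine and estrogen target in breast cells, read 15.6 and 9.25 in ESCm and 114 and 80.1 in mesodermal cells (0.33 ± 0.17, adjusted p = 0.701), and Pgr, the progesterone receptor, 18.0 and 11.1 in ESCm and 88.2 and 75.9 in mesodermal cells (adjusted p = 0.902). Among 21 tested genes of cholesterol synthesis and SREBP2 targets 2 were higher and 8 lower in both, with medians of −0.0057 and −0.07. Fdft1 (squalene synthase) gave −0.11 ± 0.06 and Hsd17b7, a late enzyme, −0.21 ± 0.12 (adjusted p = 0.682 and 0.758). The lysosome list had 4 of 14 genes higher and 3 lower in both (medians −0.02 and 0.02). Its gene Psap (prosaposin) was called higher at a weaker probe set (661 and 548 in ESCm, 1072 and 847 in mesodermal cells, 0.30 ± 0.07, adjusted p = 0.0297), with 0.11 ± 0.06 at its highest one. Of 19 genes of xenobiotic and oxidative stress 8 were higher and 5 lower in both (0.07 and 0.01).

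**Figure D5:**
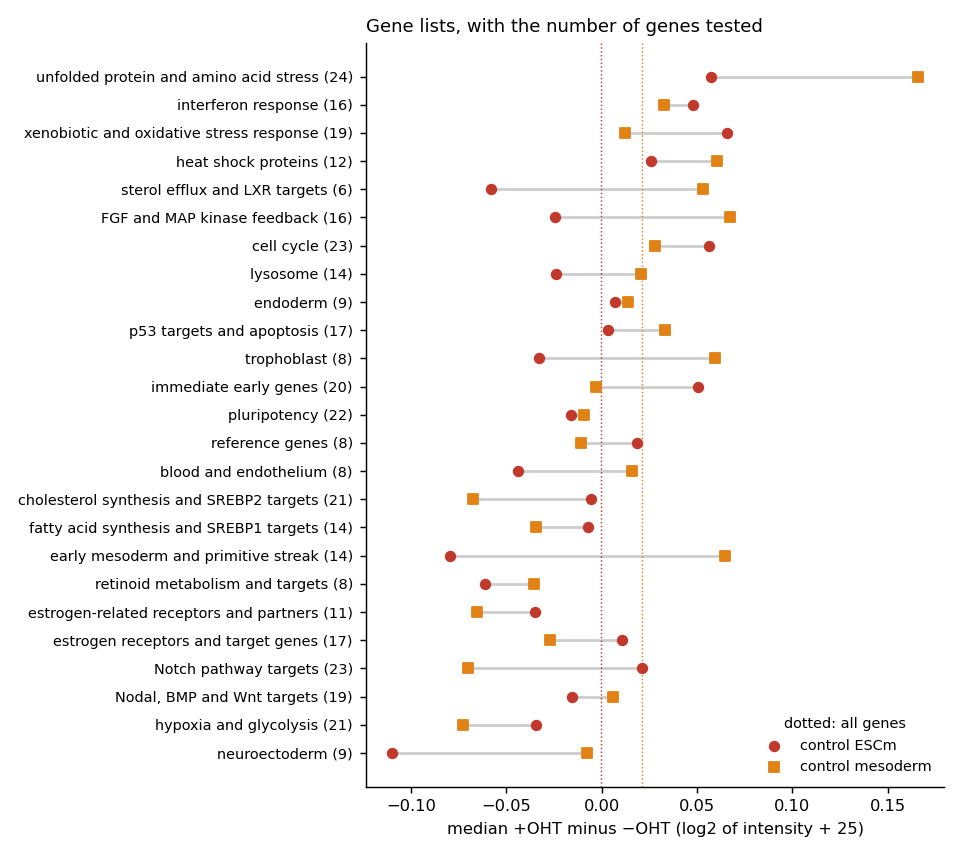
Median change with OHT (x axis, +OHT minus −OHT in log2 of intensity plus 25) over the tested genes of 25 lists in control ESCm (circles) and control mesodermal cells (squares), with the number of tested genes in brackets and dotted lines at the medians of all genes. The unfolded protein and amino acid stress list lies farthest to the right in mesodermal cells (0.17), and the neuroectoderm list farthest to the left in ESCm (−0.11).

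The remaining lists among the 25 had no called gene at the highest probe sets either, and at any other probe set 1, Spred2, an inhibitor of ERK signaling (−0.37 ± 0.09, adjusted p = 0.0373). Hspa4, an Hsp70 relative outside the lists, named after its values were seen, was called lower at a weak probe set (163 and 232 in ESCm, 98.9 and 132 in mesodermal cells, −0.40 ± 0.09, adjusted p = 0.0322), with 0.08 ± 0.04 at its highest one. Genes of the immediate early response, which follow serum and handling, had medians of 0.05 and −0.0029, with 5 of 20 higher and 2 lower in both. The heat shock list had 6 of 12 genes higher in both and none lower, led by Hspa1b (648 and 560.1 in ESCm, 499 and 431 in mesodermal cells, 0.20 ± 0.07, adjusted p = 0.378). The list of hypoxia and glycolysis went the other way, with 9 of 21 lower in both and 3 higher, among them the hexokinase gene Hk2 (−0.15 ± 0.06, adjusted p = 0.37). Pluripotency genes had medians of −0.02 and −0.0090, and Lin28a, an RNA-binding protein of stem cells, gave −0.21 and −0.16 (adjusted p = 0.148). Early mesoderm genes differed in sign between the populations (−0.08 in ESCm, 0.06 in mesodermal cells), and 1 of 14 was higher and 2 were lower in both. The reference genes Actb (−0.01), Rpl13a (−0.02) and Tbp (0.015) were near 0 on average.

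By the test over 16 arrays 1 probe set of 23302 (0.00429%) responded differently in mesodermal cells and in ESCm, 1433219_at, which has no gene symbol. The malonyl-CoA decarboxylase gene Mlycd read 217 and 109 in ESCm with and without OHT and 103.5 and 124 in mesodermal cells (0.86 and −0.22). The neurotransmitter transporter gene Slc6a17 moved in opposite directions, with 218 and 110 in ESCm and 48.0 and 107 in mesodermal cells (0.85 and −0.86). For neither did the difference pass the test (adjusted p = 1), so the small number of calls does not show that the responses were alike.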

How the data were processed

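In the study cRNA was made from total RNA and hybridized to Affymetrix Mouse Genome 430 2.0 arrays. The authors computed the deposited intensity values with the probe model of dChip, on a linear scale, and normalized them by invariant sets to the control mesoderm +OHT array, which is itself 1 of the 4 control arrays. Detection calls were not used. A single gene symbol was given for 34945 of the 45037 probe sets, more than 1 for 932 and none for 9160, symbols being updated through the RefSeq gene table (34741 found). Values were tested as log2 of the intensity plus 25, over 23302 probe sets at 50 or more on at least 1 control array, with limma 3.58.1 (R 4.3.3, lmFit, then eBayes with an intensity trend). P-values were two-sided and adjusted by Benjamini and Hochberg, with a threshold of 0.05. The control fit had population as block, with 1 residual and 39.4 prior degrees of freedom. NERT arrays were fitted with cell state as block, and differences between responses over 16 arrays with 12 conditions. Gene lists used each gene's highest probe set. Named genes were the calls (at most 12 per direction), the 12 most even rises and falls, the 5 largest per direction and population, and up to 4 per list. The members and lists were chosen with earlier results of these data known. The control fit was tested on 4 simulated arrays that were given the spread of that same fit. Nothing says that arrays came from separate cultures, so the p-values speak only of the spread among the arrays at hand, possibly a technical one, and the small number of arrays limits the precision. Python 3.11.15 with numpy 2.4.6, pandas 2.3.3 and matplotlib 3.10.9 made the other tables. Alternatives were pseudocounts of 5 and 100, a minimum of 200 or none, quantile normalization, median centring, other spreads, blocks and left-out arrays.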

Additional observations from a re-analysis of the deposited data

Results flagged for a closer look

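A difference in the response to OHT between mesodermal cells and ESCm passed the test for 1 probe set. 1433219_at, which has no gene symbol, read 6.19 with OHT and 158 without in control mesodermal cells and 11.4 and 2.44 in ESCm, a mesoderm minus ESCm difference of −2.96 ± 0.30 (SE, adjusted p = 0.0246). The mesoderm array without OHT carries it, since the other 15 arrays read 1.54 to 13.3. The difference was called in 2 of the 8 fits that leave out 1 replicated NERT array.

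A difference between the responses of control and NERT cells passed for 7 genes, and in each the NERT response was the higher one. NERT minus control was 3.38 for Nrarp (adjusted p = 0.00538), 1.97 for the kinase gene Tec, 1.82 each for Cntnap2 and Gadd45b, and 1.72 each for Il33, Egr1 and Hspb8 (adjusted p of 0.0329 to 0.0416 for these 6). Control cells with and without OHT read 444 and 509 for Egr1 in ESCm and 137 and 139 in mesodermal cells, and 355 and 349 in ESCm and 573 and 590 in mesodermal cells for Gadd45b.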

How the results depend on the processing

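The 104 calls in control cells changed with the estimate of the spread and the filter. No probe set was called with all 16 arrays and 12 conditions, with responses pooled over 16 arrays, without the population block, without the intensity trend or without a filter on low values (0 in each, 186, 274, 34, 1647 and 2363 at an unadjusted p under 0.05). Leaving out the ESCm pair gave 2 calls and leaving out the mesoderm pair 1 (range 1 to 2), each tested with the spread of the fit over 16 arrays, so that a lone array is assumed to vary like the replicated NERT arrays. Median centring gave 175 calls (133 higher and 42 lower), pseudocounts of 5 and 100 gave 137 and 75, a minimum of 200 gave 139, quantile normalization 70 and robust eBayes, chosen after seeing the data, 90 (86 of them among the 104). The change of Gm17762 was −2.27 without the ESCm pair and turned to 0.08 without the mesoderm pair.

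Probe sets past 2-fold were 4345 in ESCm and 4494 in mesodermal cells without the minimum difference, and 79 and 28 at 1.5-fold. Those changed by 0.32 or more on the log2 scale in the same direction in both populations, 165 in all, were 401 and 7 with pseudocounts of 5 and 100 and 28 with a minimum of 200. The 1 difference between the populations became 0 with quantile normalization (0 to 1 with single NERT arrays left out), and the 7 between NERT and control cells became 12 (0 to 12, with 0 when either NERT mesoderm +OHT array was left out, 1 when any such −OHT array was, with or without CHX, and 12 when either +OHT array with CHX was). In control cells the fit already compares arrays within each population, and replicate numbers could not serve as block, because each condition has 1 array. In NERT mesodermal cells same-numbered arrays deviated together without CHX (correlation 0.52) and hardly with it (0.07). The main NERT fit did not use the numbers as block, so it leaves out the deviation shared without CHX. With the replicate number as block the NERT fit called 388 probe sets against 292 without (288 shared).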
